A study of Mus musculus with 6 samples.

Results

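The basic leucine zipper (bZIP) genes Batf, Batf3, Bach1, Bach2, Maf, Mafg, Mafk, Nfe2l2, Nfil3 and Atf3 were followed in regulatory T cells (Tregs) of mice with floxed or wild-type Junb. They were chosen by symbol as partners or competitors of JunB, and all 10 were found among the 53379 gene identifiers of the deposited tables and passed the filter on low counts. The KO libraries (n = 3, titled bKO in the labels) came from mice of the genotype Foxp3YFP-CrexJunbFlox/Flox. The WT libraries (n = 3) came from mice of the genotype Foxp3YFP-CrexJunb+/+. All mice were of the C57BL/6 strain and 3 months old, and all carried the Foxp3YFP-Cre allele, so Cre was present in WT Tregs as well. Foxp3 drives this Cre, which limits the deletion of floxed Junb to cells that have expressed Foxp3. Tregs were sorted by flow cytometry, and the labels do not say whether a library holds cells of 1 mouse or of several. The question put to the libraries was how loss of JunB alters expression in Tregs, here for the bZIP factors that share partners or binding sites with it.

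The targeted gene and the purity of the libraries were checked before the bZIP genes were read. Junb stood at 57.1, 57.3 and 49.6 CPM (counts scaled by normalised library size) in KO replicates 1 to 3 and at 87.1, 77.5 and 89.5 CPM in WT replicates 1 to 3, so Junb counts remained in KO. Library totals were 33784183 to 41231173 counts. The Treg genes Foxp3, Il2ra and Ikzf2 were present in every library. Foxp3 stood at 28.1, 29.4 and 39.0 CPM in KO replicates 1 to 3 and at 39.5, 32.7 and 36.65 CPM in WT replicates 1 to 3. By Foxp3 alone KO replicates 1 and 2 were thus close. Ikzf2 stood at 181, 314 and 477 CPM in KO and at 471, 421 and 475 CPM in WT, in the same order. The sum of 7 Treg markers was 876, 1491 and 2036 CPM in KO replicates 1 to 3 and 1868 to 2133 CPM in WT, so KO replicate 1 stood apart at the low end. That library also had the highest sum of 10 conventional CD4 T cell markers, 2526 CPM, against 1479 to 1951 CPM in WT. Markers of other cells were present in both genotypes, and 0 of those listed were at 0 in all 6 libraries. The sum of 10 B cell markers was 543 to 702 CPM in KO and 131 to 1134 CPM in WT, with WT replicate 2 the highest. The sum of 12 myeloid markers was 521 to 1083 CPM in KO and 177 to 972 CPM in WT. The sum of 5 plasma cell markers was 548 to 1640 CPM in KO and 284 to 1880 CPM in WT. Means were higher in KO for 8 of the 10 B cell, 11 of the 12 myeloid and 9 of the 10 conventional CD4 T cell markers. They were also higher for 5 of 5 plasma cell, 8 of 8 pancreatic acinar, 6 of 8 CD8 T and NK cell and 7 of 8 erythroid and platelet markers. The sum of 8 erythroid and platelet markers was 57.8 to 5757 CPM in KO, highest in replicate 1, and 82.3 to 2057 CPM in WT.

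Factors of the bZIP family bind DNA as dimers. A basic stretch of each partner lies in the major groove, and a leucine zipper behind it decides who pairs with whom. BATF and BATF3 have no activation domain of their own and pair with JUN proteins, JunB among them, and in T cells such pairs bind composite sites together with IRF4. BACH1 and BACH2 are repressors that pair with the small MAF proteins, MAFG and MAFK, and compete for the same kind of site. NRF2, the product of Nfe2l2, pairs with small MAFs as an activator of antioxidant genes. The large factor c-MAF, the product of Maf, drives Il10 in T cells, NFIL3 is a repressor of circadian and immune genes, and ATF3 is made under stress.

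The bases that encode the conserved DNA-contacting stretch are shown for 6 of the genes so that members of each subfamily can be set side by side. Each line runs 5′ to 3′ on the coding strand and was read from GENCODE M21 transcripts on GRCm38. The first and the last codon, in capitals, encode an asparagine and an arginine. The stretches were found by an amino acid pattern that requires both, so that these are shared is no result. The pattern also limits some amino acids between them, so the likeness in bases is in part set by the search.
Batf: AATcgcatcgctgcccagaagagcCGA
Bach2: AACcgcattgcagcccagcgctgtCGA
Maf: AACcgcggctatgcccagtcctgcCGC
Mafg: AACcggggctacgcggccagctgcCGC
Nfe2l2: AATaaagtcgccgcccagaactgtAGG
Nfil3: AACaacgaagctgccaaaagatctCGG

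Likeness in these bases did not follow the subfamilies throughout. Of the 27 bases, Batf had 19 in common with Bach2 and likewise 19 with its own relative Batf3. It had 17 in common with Maf, 17 with Nfe2l2, 17 with Atf3, 13 with Nfil3 and 12 with Mafg. Mafg and Mafk were the closest pair of the 10 genes, with 23 bases in common. Over whole transcripts no word of 50 bases, the length of the reads, was shared between any of the 10 genes. Batf, Batf3, Bach1, Nfe2l2, Nfil3 and Atf3 shared 0 such words with other genes. For Bach2 5.19% of its words stood in transcripts of 138 other genes, and for Maf 4.65% in those of 707. For Mafk 3.12% stood in Tmem184a, and for Mafg 1.34% in Sirt7. Mafk and Mafg overlap these neighbours in exons, and Bach2 and Maf overlap antisense genes (Bach2os and Gm15655). The use of strand in counting is not stated, so counts of Mafk, Bach2 and Maf may hold reads of neighbours on the other strand. Sirt7 lies on the same strand as Mafg, so strand would not tell their shared exon bases apart.

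Per length of transcript, Batf had the highest mean of the 10 genes in both genotypes and Atf3 the lowest. Batf averaged 44.1 ± 13.1 TPM (counts scaled by library size and by the summed length of all exons) in KO and 69.0 ± 11.9 TPM in WT (SD, n = 3 each, as for all means given). Maf followed at 25.2 ± 10.5 TPM in KO and 32.4 ± 6.33 TPM in WT, and Nfe2l2 at 14.2 ± 2.17 TPM in KO and 13.4 ± 2.43 TPM in WT. The libraries of Batf, Maf and Nfe2l2 stood apart from each other in WT, while in KO Batf overlapped Maf and Maf overlapped Nfe2l2. Below them Mafk, Mafg and Bach2 lay between 2.61 and 6.96 TPM in all libraries, and neighbours among these 3 overlapped in both genotypes. Nfil3 averaged 2.15 ± 0.459 TPM in KO and 2.41 ± 0.766 TPM in WT, below Bach2 without overlap in KO but with overlap in WT. Bach1 averaged 1.13 ± 0.193 TPM in KO and 1.17 ± 0.3155 TPM in WT, and its libraries overlapped those of Batf3, which in turn overlapped those of Atf3 in both genotypes.

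**Figure D1:**
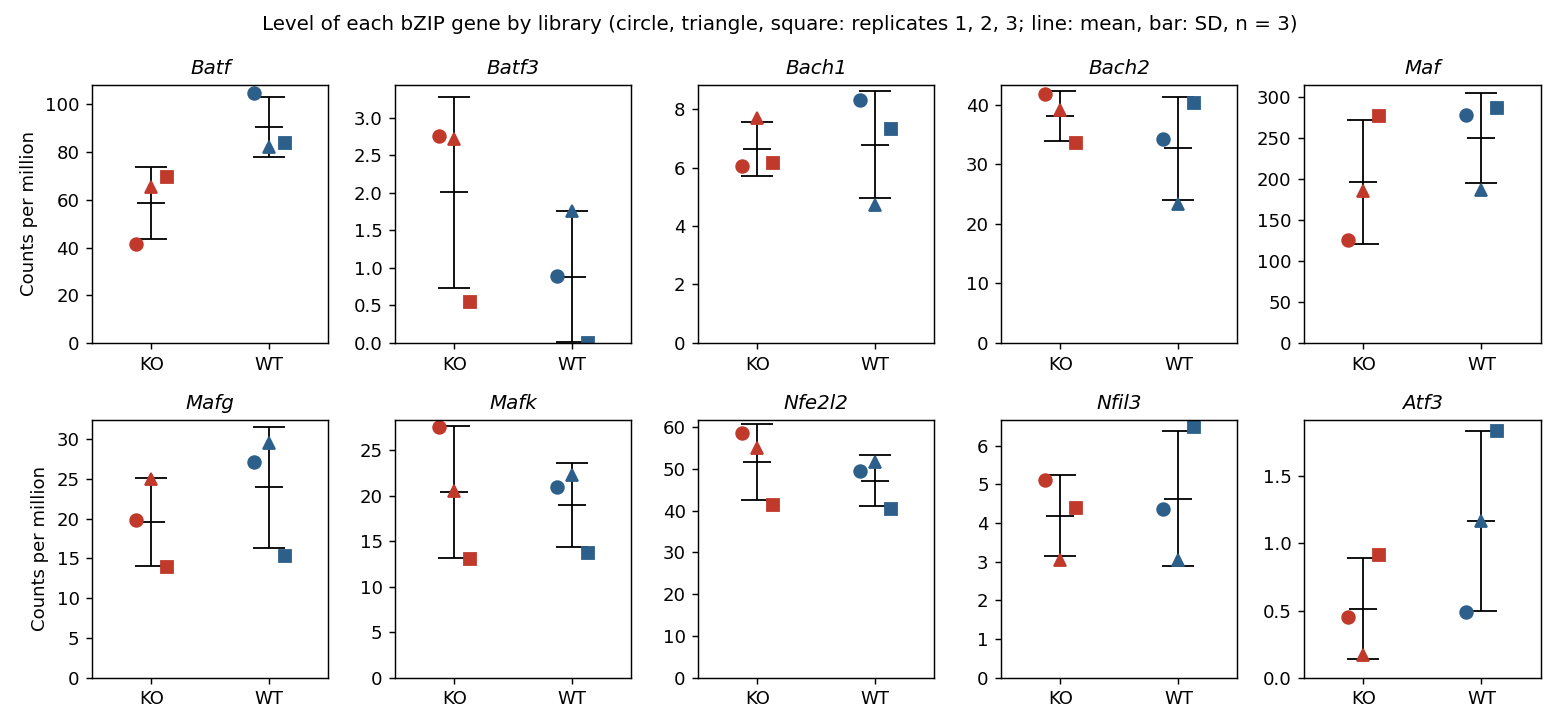
Each panel plots CPM of 1 gene for 3 KO and 3 WT libraries, with circles, triangles and squares for replicates 1, 2 and 3, a line for the mean and a bar for the SD. Only in the Batf panel do the genotypes not overlap, with KO at 41.5 to 69.7 CPM and WT at 82.4 to 105 CPM.

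Batf had the clearest difference between genotypes, with a lower level in every KO library. Batf (ENSMUSG00000034266.6, chromosome 12, 85686669 to 85709087, plus strand, GRCm38) stood at 41.5, 65.2 and 69.7 CPM in KO replicates 1 to 3 and at 105, 82.4 and 83.9 CPM in WT replicates 1 to 3. The highest KO library lay below the lowest WT library, and KO replicate 1 was the lowest of all. The mean was 58.8 ± 15.1 CPM in KO and 90.4 ± 12.6 CPM in WT, so that KO had 65.0% of the WT level. The log2 difference was -0.62 (SE 0.22, 95% interval -1.14 to -0.10). By edgeR's quasi-likelihood test the p was 0.0260 before and 0.9999 after adjustment over the 20475 genes tested, and DESeq2 gave an adjusted p of 0.588, so Batf did not pass. An exact permutation test over the 6 libraries (two-sided) gave p = 0.1, and no smaller p is possible with 3 against 3. In bulk samples fewer cells of a type and less RNA per cell cannot be told apart.

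Since the genotypes did not overlap in Batf, its difference could not change sign in a subset of the libraries, and the following values bear on its size alone. Libraries fall into 2 sets by a number in the table names, which the labels do not explain. The log2 difference of Batf was -0.51 in the set with KO replicate 2 and WT replicates 1 and 2, and -0.64 in the set with KO replicates 1 and 3 and WT replicate 3, where each set has 1 genotype with a single library. Without KO replicate 1, the library with the fewest Treg marker counts, it was -0.43 (edgeR, unadjusted p = 0.0391). Without WT replicate 1 it was -0.50, and the unadjusted p by edgeR was 0.0902. Batf followed the Treg markers in KO, where replicate 1 was lowest and replicate 3 highest in both, and in WT replicate 1 had the highest Batf while replicate 3 had the highest marker sum. The part of cell composition in the Batf difference was not tested.

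Of the 10 genes 1, Batf, did not overlap between genotypes, and 0 of 10 were called at an adjusted p of 0.05 by edgeR. Over all 20475 genes tested, edgeR called 0% (0 genes), and 2.88% had an unadjusted p under 0.05. Limma-voom also called 0% of genes, with 740 (3.61%) unadjusted. DESeq2 called 63 genes, 0.272% of the 23198 to which it gave an adjusted p, and 0 of the 10 were among them. Libraries did not overlap, with KO lower, in 4.07% of all genes and, with KO higher, in 3.68%. With an unadjusted p under 0.05 and KO lower, edgeR found 1.48% of all genes and 1 of the 10, Batf. With KO higher it found 1.4% of all genes and 0 of the 10. In either direction, the number of the 10 with an unadjusted p under 0.05 by edgeR was 0 with a term for the number in the table names. It was also 0 without WT replicate 1, and 2 without KO replicate 3. In that last run Maf had a log2 difference of -0.69 (unadjusted p by edgeR 0.0406). Of the 10 genes 6 had a lower and 4 a higher mean in KO, with a median log2 difference of -0.09, where 49.1% of all genes were lower, 50.9% higher and the median was 0.005.

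**Figure D2:**
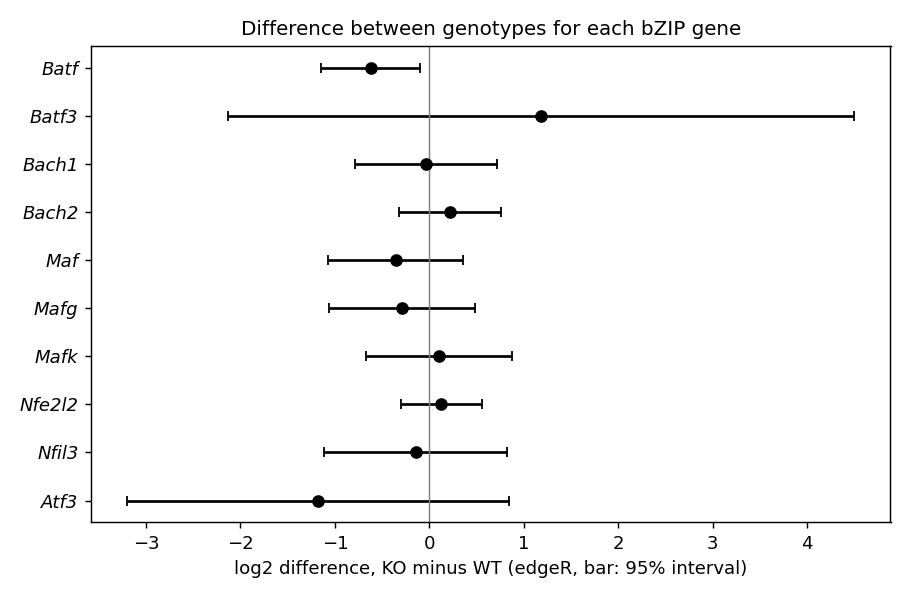
Points are log2 differences, KO minus WT, of the 10 genes by edgeR and bars their 95% intervals. The interval of Batf, -1.14 to -0.10, is the only one that leaves out 0, before any adjustment, and those of Batf3 and Atf3 are the widest.

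Batf3, which in mice is best known as a factor of cross-presenting dendritic cells, had a low level that varied widely between libraries. On chromosome 1 (191097847 to 191108945, plus strand) it had 104, 95 and 20 counts in KO replicates 1 to 3 and 31, 60 and 0 counts in WT replicates 1 to 3. The 0 counts of WT replicate 3 allow up to 0.0743 CPM, taken as 3 counts and for counting error only. The mean was 2.003 ± 1.27 CPM in KO and 0.883 ± 0.876 CPM in WT, and the genotypes overlapped. The log2 difference of 1.18 had an interval of -2.14 to 4.50 (edgeR, adjusted p = 0.9999). It was 0.59 without WT replicate 3, the library at 0, 2.16 without WT replicate 2 and 3.37 with a term for the number in the table names. Clec9a and Xcr1, which mark the same dendritic cells, were low in all libraries. Clec9a stood at 1.46, 0.428 and 2.70 CPM in KO replicates 1 to 3 and at 0.145, 0.204 and 0.297 CPM in WT replicates 1 to 3. It did not overlap, with KO higher, as was found in 3.68% of all genes tested. Xcr1 stood at 0.186, 0.885 and 1.62 CPM in KO and at 1.13, 1.67 and 0.0743 CPM in WT, in the same order. KO replicate 3 thus had the lowest Batf3 of the KO libraries and the highest Clec9a and Xcr1. In WT Xcr1 had the order of Batf3, and Clec9a did not. The part of such cells in the Batf3 counts was not tested.

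Bach2 and Bach1, the repressors, did not differ beyond the spread between libraries. Bach2 (chromosome 4, 32238804 to 32586108, plus strand), which holds back effector genes in resting T cells and is also abundant in B cells, stood at 41.8, 39.0 and 33.5 CPM in KO replicates 1 to 3 and at 34.3, 23.3 and 40.3 CPM in WT replicates 1 to 3. WT replicate 2 was the lowest library and the others overlapped, with means of 38.1 ± 4.23 CPM in KO and 32.6 ± 8.61 CPM in WT. The log2 difference was 0.22 (interval -0.32 to 0.76, edgeR adjusted p = 0.9999), and within the 2 sets by table number it was 0.46 and -0.11, of opposite sign. Without WT replicate 2 it was 0.03, and without WT replicate 3 it was 0.40. WT replicate 2 combined the lowest Bach2 level with the highest B cell marker sum, 1134 CPM. The part of B cells in the Bach2 counts was not tested. Bach1 (chromosome 16, 87698945 to 87733346, plus strand), a heme-sensing repressor, averaged 6.63 ± 0.911 CPM in KO and 6.79 ± 1.85 CPM in WT. Its log2 difference was -0.03 (interval -0.79 to 0.72, edgeR adjusted p = 0.9999), which leaves room for changes of either sign.

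Batf and Bach2 encode factors that can meet at the same kind of site. Their ratio, Batf over Bach2, was lower in every KO library than in any WT library, though at the edge the genotypes nearly touched. The ratio of their TPM values was 7.02, 11.8 and 14.70 in KO replicates 1 to 3 and 21.6, 25.0 and 14.72 in WT replicates 1 to 3. KO replicate 3 and WT replicate 3, of the same set by table number, were nearly equal. The mean ratio was 11.2 ± 3.88 in KO and 20.4 ± 5.24 in WT. The pair was chosen after the values of both genes were seen, so no test is given, and of 7 ratios computed it was the only one whose libraries did not overlap. The ratio of Batf to its partner Junb averaged 1.78 ± 0.558 in KO and 1.75 ± 0.219 in WT, with a log2 difference of -0.02. Batf and Junb thus had lower means in KO by similar factors, and the libraries of the ratio overlapped.

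**Figure D3:**
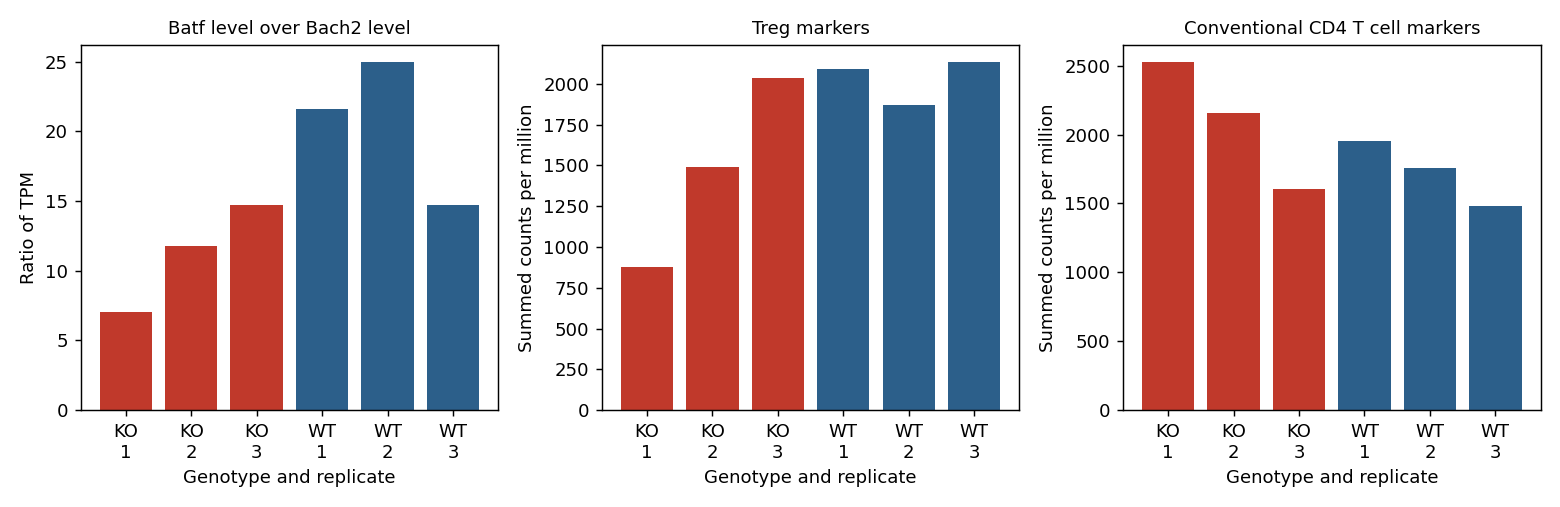
Bars give, for 3 KO and 3 WT libraries, the ratio of Batf to Bach2 in TPM, the summed CPM of 7 Treg markers and the summed CPM of 10 conventional CD4 T cell markers. KO replicate 1 has the lowest ratio, 7.02, the lowest Treg sum, 876 CPM, and the highest conventional CD4 sum, 2526 CPM.

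Maf, the large MAF factor, overlapped between genotypes through a single KO library. Maf (chromosome 8, 115682942 to 115707794, minus strand) stood at 126, 186 and 277 CPM in KO replicates 1 to 3 and at 279, 187 and 287 CPM in WT replicates 1 to 3. KO replicate 3 was close to WT replicates 1 and 3, and KO replicate 2 close to WT replicate 2, so that KO replicate 1 lay far below the WT range and KO replicate 2 just below it. The log2 difference was -0.35 (SE 0.30, interval -1.07 to 0.36, edgeR adjusted p = 0.9999), and without KO replicate 1 it was -0.12. In KO the order of the replicates was that of the Treg marker sum, and in WT replicate 2 was lowest in both.

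The small MAF genes and Nfe2l2 overlapped between genotypes, and Mafg separated the libraries by table number. Mafg (chromosome 11, 120625117 to 120633600, minus strand) stood at 19.8, 25.0 and 14.0 CPM in KO replicates 1 to 3 and at 27.1, 29.5 and 15.2 CPM in WT replicates 1 to 3. KO replicate 2 and WT replicates 1 and 2, which share a table number, were all above the 3 others, a separation found in 18.1% of all genes in either direction. The log2 difference between genotypes was -0.29 (interval -1.06 to 0.48) over all libraries, and -0.18 and 0.13 within the sets.

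Mafk (chromosome 5, 139791513 to 139802653, plus strand) stood at 27.5, 20.5 and 13.04 CPM in KO replicates 1 to 3 and at 20.9, 22.3 and 13.8 CPM in WT replicates 1 to 3. Both genotypes had their lowest level in replicate 3, and the log2 difference was 0.10 (interval -0.67 to 0.88). Nfe2l2 (chromosome 2, 75675513 to 75704641, minus strand) stood at 58.7, 54.9 and 41.3 CPM in KO replicates 1 to 3 and at 49.6, 51.7 and 40.4 CPM in WT replicates 1 to 3. It had the narrowest interval of the 10 genes, with a log2 difference of 0.13 (interval -0.30 to 0.56). For Mafg, Mafk and Nfe2l2 the adjusted p by edgeR was 0.9999.

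These 3 genes also shared a feature in the promoter windows searched. In windows from 250 bases before to 50 after the start site, taken from RefSeq on GRCm38.p6 for 9 of the 10 genes, the core letters of the antioxidant response element, to which NRF2 and small MAF pairs bind, were found in the windows of Nfe2l2, Mafg and Mafk and in none of the other 6. The letters searched were TGACNNNGC on both strands, and 12.4% of all 32851 promoter windows held them. A single window a gene was searched, and other start sites were not. Maf had no window and was not searched. The windows of Bach2 (chr4:32417185-32417484) and Atf3 (chr1:191183284-191183583) lie far inside the genes as GENCODE bounds them. The matches are shown in capitals with up to 12 bases on each side, 5′ to 3′ on the strand of the gene. Within the windows searched they set these 3 genes apart from the other 6.
Nfe2l2: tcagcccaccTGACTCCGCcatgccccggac
Mafg: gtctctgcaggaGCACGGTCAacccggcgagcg
Mafk: gcgatcccggaaGCGGTGTCAgtac

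The stretch of Nfe2l2 lies at chr2:75704883-75704913 (minus strand), that of Mafg at chr11:120633749-120633781 (minus strand) and that of Mafk at chr5:139791511-139791535 (plus strand). In Mafg and Mafk the letters run on the other strand. The letters of Mafk lie before the RefSeq start but inside the gene as GENCODE bounds it. The AP-1 letters TGAGTCA, which JUN and BATF pairs bind, the cAMP response letters TGACGTCA and the NFIL3 letters TTANGTAA were searched in the same way. None of the 9 windows held any of these, while 5.20%, 1.79% and 2.32% of all windows did, in that order. A match is a description of the letters and not a sign of binding.

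Nfil3 and Atf3 overlapped between genotypes. Nfil3 (chromosome 13, 52967209 to 52981073, minus strand) stood at 5.11, 3.06 and 4.39 CPM in KO replicates 1 to 3 and at 4.37, 3.04 and 6.49 CPM in WT replicates 1 to 3. Replicate 2 was lowest in both genotypes, the libraries separated by table number in the direction opposite to Mafg, and the log2 difference was -0.15 (interval -1.12 to 0.82). Atf3 (chromosome 1, 191170296 to 191218039, minus strand) had 17, 6 and 34 counts in KO replicates 1 to 3 and 17, 40 and 74 counts in WT replicates 1 to 3. That is 0.513 ± 0.376 CPM in KO and 1.16 ± 0.671 CPM in WT, and the log2 difference was -1.18 (SE 0.85, interval -3.20 to 0.84). For both genes the adjusted p by edgeR was 0.9999.

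Proteins that work with the 10 factors gave the following values. Irf4, the partner of BATF at composite sites, stood at 11.7, 39.3 and 25.4 CPM in KO replicates 1 to 3 and at 38.2, 31.0 and 25.5 CPM in WT replicates 1 to 3. KO replicate 1 was far below the rest and the others overlapped, with a log2 difference of -0.31 (interval -1.30 to 0.68), of the other sign (0.03) without that library. Irf8, an IRF that pairs with BATF proteins in dendritic cells and is also made by B cells, stood at 57.8, 81.3 and 77.9 CPM in KO replicates 1 to 3 and at 24.7, 107 and 25.9 CPM in WT replicates 1 to 3. WT replicate 2, richest in B cell markers, was above all KO libraries and the other WT libraries below them. The log2 difference of Irf8 was 0.46, and by edgeR 1.52 without WT replicate 2 (unadjusted p = 0.000299, adjusted p = 0.4505) and 0.12 without WT replicate 1. The part of B cells in the Irf8 counts was not tested. Keap1, which holds NRF2 for degradation, averaged 40.6 ± 2.90 CPM in KO and 51.9 ± 4.29 CPM in WT. No KO library of Keap1 reached the lowest WT library, and the log2 difference was -0.35 (interval -0.68 to -0.03, edgeR adjusted p = 0.9999, unadjusted 0.0359). Cul3, the ubiquitin ligase scaffold that works with KEAP1, averaged 54.3 ± 6.20 CPM in KO and 53.1 ± 6.39 CPM in WT.

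The JUN relatives that can stand in as partners of BATF had lower means as well. Jun averaged 5.30 ± 0.519 CPM in KO and 8.45 ± 1.75 CPM in WT without overlap, and Jund 24.3 ± 6.49 CPM in KO and 29.4 ± 11.1 CPM in WT with overlap. Their log2 differences were -0.67 for Jun and -0.28 for Jund, and Jund was of the other sign (0.06) without WT replicate 3. The clock repressor Nr1d1, which regulates Nfil3, averaged 6.69 ± 4.04 CPM in KO and 2.79 ± 2.85 CPM in WT, and of the WT libraries only replicate 2 overlapped KO. The log2 difference of Nr1d1 was 1.26, and by edgeR 2.54 without WT replicate 2 (unadjusted p = 0.0138, adjusted p = 0.726) and 0.80 without KO replicate 3. Its relative Nr1d2 averaged 10.8 ± 4.92 CPM in KO and 14.3 ± 4.84 CPM in WT, with overlap. Of the 9 partners and regulators 0 passed by edgeR adjusted over all genes, and Junb alone was called by DESeq2.

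In the wider bZIP family 20 of 36 tested genes had lower and 16 higher means in KO, with a median log2 difference of -0.04, close to the 0.005 of all genes. The most abundant were Creb1, a cAMP response factor (64.7 ± 5.65 CPM in KO and 61.0 ± 3.05 CPM in WT), and Junb. Fos, a partner of JUN proteins, averaged 13.3 ± 3.25 CPM in KO and 29.9 ± 9.03 CPM in WT without overlap. Tef, a PAR factor that binds the same sites as NFIL3, averaged 21.2 ± 6.62 CPM in KO and 12.9 ± 2.48 CPM in WT with overlap. The log2 differences of Fos and Tef were -1.17 and 0.72, and neither passed by edgeR (adjusted p = 0.9999 for both). The libraries did not overlap in 4 of the 36 genes, Jun, Junb, Fos and Nfe2l3, where 7.76% of all genes had no overlap in either direction.

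Genes linked to BATF and IRF4 in effector Tregs had lower means in KO in 18 of 20 cases, with a median log2 difference of -0.47. Of all genes, 49.1% were lower. Leaving cell type markers aside, 9 of the 20 stand in another list of this report as well, and all 9 had lower means. The 11 in no other list had 9 lower and 2 higher means. Il10, the gene of a suppressive cytokine, averaged 1.71 ± 0.566 CPM in KO and 5.61 ± 2.26 CPM in WT, with a log2 difference of -1.71. Ccr8, a chemokine receptor of effector Tregs, stood at 10.5, 17.4 and 20.2 CPM in KO replicates 1 to 3 and at 30.9, 25.2 and 32.9 CPM in WT replicates 1 to 3. Il10, Ccr8 and Tigit, 3 of the 20, were lower in KO without overlap, as were 4.07% of all genes. The abundant TNF receptor genes Tnfrsf4 (265 ± 118 CPM in KO and 372 ± 36.8 CPM in WT) and Tnfrsf18 (235 ± 85.6 CPM in KO and 319 ± 59.7 CPM in WT) overlapped. None of the 20 passed by edgeR adjusted over all genes, and without KO replicate 1 the list had 16 lower members and a median of -0.19. Without KO replicate 3 it had 19 lower members and a median of -0.72. All 7 Treg markers had lower means in KO too, and Il2ra, Ctla4 and Tnfrsf18 stand in both lists. The part of the Treg markers in the lower means was not tested.

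Genes linked to c-MAF, 5 of whose entries stand in another list, had lower means in 11 of 13 cases, with a median of -0.43 and of -0.28 without KO replicate 1. Pdcd1, the gene of the inhibitory receptor PD-1, stood at 131, 181 and 198 CPM in KO replicates 1 to 3 and at 248, 201 and 239 CPM in WT replicates 1 to 3, without overlap. Lag3, another inhibitory receptor, averaged 26.99 ± 5.97 CPM in KO and 43.9 ± 15.8 CPM in WT with overlap. Genes that BACH2 holds down in T cells, among them Nfil3 itself, had lower means in 12 of 15 cases, with a median of -0.17. Of these 15 genes 8 stand in another list as well and all 8 had lower means, while the 7 in no other list had 4 lower and 3 higher means. Without KO replicate 1 that count was 8 of 15 and the median -0.06, and the median was -0.37 without KO replicate 2 and -0.31 without KO replicate 3. Gata3, a helper lineage factor, averaged 188 ± 42.8 CPM in KO and 229.7 ± 36.7 CPM in WT with overlap, and the cytokine gene Il4 2.83 ± 1.45 CPM in KO and 4.69 ± 0.722 CPM in WT without overlap. By edgeR 0 genes of either list passed adjusted over all genes.

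Antioxidant and heme genes under NRF2 and BACH1 lay near the background, with 8 of 21 lower, 13 higher and a median of 0.04. Without KO replicate 3 the lower genes were 5 and the median was 0.09, and without WT replicate 2 they were 6 and it was 0.13. The ferritin genes Fth1 (987 ± 118 CPM in KO and 936 ± 93.5 CPM in WT) and Ftl1 (857 ± 102 CPM in KO and 775 ± 72.3 CPM in WT) were the most abundant and overlapped. Fth1 had a log2 difference of 0.08, and of -0.01 without KO replicate 1. G6pdx, of the pentose phosphate pathway, averaged 25.1 ± 1.25 CPM in KO and 33.6 ± 4.17 CPM in WT without overlap, while Txnrd1, a thioredoxin reductase, averaged 24.4 ± 2.72 CPM in KO and 18.2 ± 3.83 CPM in WT with overlap. Stress response genes linked to ATF3 and ATF4 were split, with 8 of 16 lower, 8 higher and a median of 0.07. Among them Gadd45b, a growth arrest gene, averaged 19.5 ± 3.12 CPM in KO and 32.1 ± 4.90 CPM in WT without overlap. By edgeR 0 genes of either list passed adjusted over all genes.

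**Figure D4:**
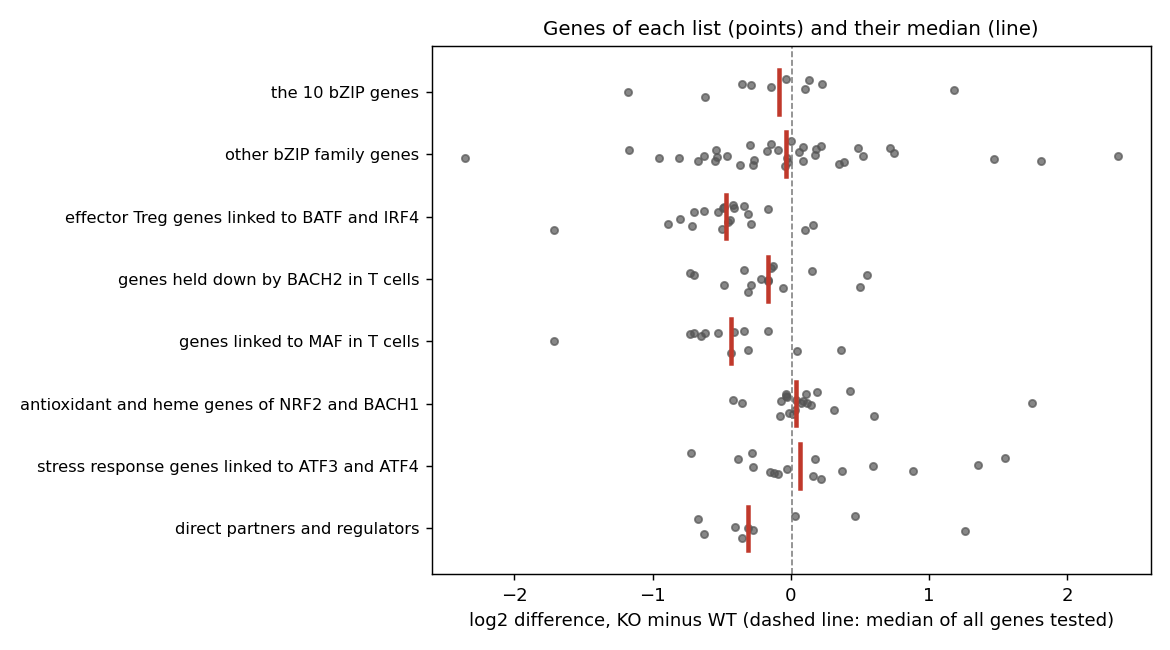
Points are log2 differences, KO minus WT, of the tested genes of each list, with a line at the median of the list and a dashed line at the median of all genes tested. The lists linked to BATF and IRF4 and to MAF have medians of -0.47 and -0.43, and those of the 10 bZIP genes and of the wider family lie near 0.

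The genes most like 4 of the factors in their course over the 6 libraries were found among 10203 genes of at least 10 CPM by the root mean square difference of centred log2 CPM. Nearest to Batf were Cd83, an activation molecule (difference 0.12), Saal1 (0.13) and Parp10 (0.13), against a median of 0.48 over the genes compared. Cd83 stood at 84.7, 119 and 127 CPM in KO replicates 1 to 3 and at 171, 167 and 142 CPM in WT replicates 1 to 3. The genotypes did not overlap in Cd83, but it was picked for its likeness to Batf, so this is no separate result. Nearest to Maf were Nprl3 (0.08), Gm5514 (0.09) and Tiam1 (0.09), and nearest to Bach2 were Il6ra, an IL-6 receptor chain (0.06), Ubqln1 (0.07) and Bcl2l13 (0.07). Nfil3 was followed most closely by Sap25 (0.05), Tmc8 (0.08) and Dusp5 (0.09). The likeness is a description of these 6 libraries.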

How the data were processed

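RNA of sorted Tregs was sequenced as single reads of 50 bases, per the labels' protocols, after SMARTer ultra-low-input amplification. The authors deposited raw counts per Ensembl gene, 1 table a library. The submitters' processing notes name mm10, STAR 2.3, featureCounts and bcl2fastq 2.19.0.316, and leave annotation release, counting options and strand unstated. No molecular identifiers are named, so intervals and floors from counts cover counting error only. Totals were 33784183 to 41231173 counts, and the common dispersion of 0.260 (a coefficient of variation of 51.0%) limited precision.

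Of 53379 identifiers 53274 were matched, without version, to GENCODE M21 (GRCm38). KO and WT were compared with edgeR 4.0.16 (R 4.3.3): filterByExpr, TMM, robust quasi-likelihood fit with genotype alone, Benjamini-Hochberg adjustment over 20475 genes and a threshold of 0.05. DESeq2 1.42.0, limma-voom 3.58.1, other scalings and filters, a replicate block, a term for the table number and each library left out were alternatives. The code was tested on simulated data. Separate animals are not stated in the labels: p-values reflect library-to-library spread, which may be technical. No library was a copy of another. Named genes were the 10 members, their partners and, of each list, the 2 most abundant genes and the 3 with the smallest p, plus the 3 most like Batf, Maf, Bach2 and Nfil3. Others named (Tigit, Nfe2l3, Clec9a, Xcr1) were chosen after their values were seen. Members and lists were chosen with earlier results of these data known.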

Additional observations from a re-analysis of the deposited data

How the results depend on the processing

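By edgeR 0 genes were called over all genes in each scaling, filter, block and left-out library run, by limma-voom 0 as well, and by DESeq2 63, while 0 of the 10 bZIP genes were called under any of the 14 alternatives. The log2 difference of Batf lay between -0.76 and -0.43, its sign with a library left out being fixed by the lack of overlap, and its unadjusted p was under 0.05 in 12 of 14. The number of bZIP genes with an unadjusted p under 0.05 was 0 with a term for the table number and 0 to 2 with a library left out. The median over the 10 genes lay between -0.17 (without WT replicate 2) and -0.026 (without WT replicate 1) with a library left out. Junb was called by DESeq2 alone (-0.63). Deviations of same-numbered KO and WT libraries had correlations of -0.09, 0.19 and 0.04, against -0.18 to 0.13 for the other pairs. Deviations about a mean of 3 libraries offset each other, so these values cannot decide whether the numbers pair the samples. The labels state no pairing. With the replicate number as a block 0 genes were called and Batf had -0.64. With a library left out some small differences changed sign, and the cause was not tested. The ranges of the log2 difference were -0.24 to 0.14 for Bach1, -0.18 to 0.34 for Mafk and -0.37 to 0.17 for Nfil3. For genes outside the 10 they were -0.47 to 0.0076 for Cxcr3, -0.0068 to 0.16 for Fth1, -0.77 to 0.031 for Irf4, -0.069 to 0.12 for Cul3, -0.48 to 0.063 for Jund, -0.60 to 0.045 for Tiam1, -0.39 to 0.11 for Sap25, -0.41 to 0.051 for Tmc8 and -0.54 to 0.10 for Dusp5. The other genes followed through the alternatives kept their sign in those in which they were tested. Tigit, Nfe2l3, Clec9a, Xcr1 and the Treg markers Foxp3, Ikzf2, Il2ra and Ctla4 were not followed. Over the alternatives Batf3 lay between 0.59 and 3.37 and Atf3 between -1.90 and -0.70. Atf3 was not tested at a minimum of 1 CPM in 3 libraries.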
